A study of Mus musculus with 6 samples.

Results

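The transcripts of 10 cytokine receptor chains were examined in bone marrow-derived macrophages (BMDMs) of WT and PYK2 KO mice. The chains belong to the receptors for IL-4 and IL-13 (Il4ra, Il2rg, Il13ra1), IL-10 (Il10ra, Il10rb), interferon gamma (Ifngr1, Ifngr2), type I interferon (Ifnar1, Ifnar2) and IL-6 (Il6ra). They were chosen by name, and all 10 were among the 55291 genes of the count table. After removal of genes with low counts 9 of the 10 remained among 9815 tested genes, and Il13ra1 did not.

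BMDMs are primary macrophages grown from marrow. Both groups were C57BL/6 mice, with 3 mice and 3 libraries each. The PYK2 KO mice lack PYK2, the focal adhesion-related tyrosine kinase encoded by Ptk2b, and the study describes them as total knockouts, so every cell of the animal carried the deletion. Cells of both genotypes grew for 7 days in medium with L929-conditioned medium as the source of M-CSF, with fresh medium on day 3, and no IL-4, IL-10 or interferon was named for these samples. The age and sex of these mice were not given in the sources used here. Libraries were made by a bulk form of MARS-seq, which counts the 3′ ends of polyadenylated RNA, and held from 2857097 to 3917207 counts.

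Cytokine receptors of this kind have no kinase of their own. They form 2 families, class I (here the chains for IL-4, IL-13 and IL-6 and the common gamma chain) and class II (the chains for IL-10 and the interferons). Ligand brings 2 or more chains together, Janus kinases (JAKs) bound to their tails phosphorylate each other and the receptor, and STAT transcription factors dock there and enter the nucleus. In macrophages IL-4 acts mainly through STAT6, IL-10 and IL-6 through STAT3, and type I interferons in part through STAT2. A chain can be shared between receptors, so the level of a partner can limit more than one cytokine.

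In the GENCODE M21 annotation of GRCm38 4 of the 10 chains lie on the plus strand of chromosome 16 within 192.8 kb, in the order Ifnar2, Il10rb, Ifnar1 and Ifngr2, from 91372783 to 91565623. The gap between Ifnar2 and Il10rb is 0.57 kb. Il4ra lies on chromosome 7 from 125552120 to 125579474 (plus strand), and Ifngr1 on chromosome 10 from 19591949 to 19610229 (plus strand). Il10ra is on chromosome 9 (45253837 to 45269149, minus strand) and Il6ra on chromosome 3 (89864059 to 89913196, minus strand). Il2rg (101264378 to 101268255, minus strand) and Il13ra1 (36112110 to 36171259, plus strand) are on the X chromosome. All 10 are annotated as protein-coding. Annotated genes share exon bases with Il4ra, Il2rg, Il10rb, Ifnar2 and Il6ra. Those neighbours (Gm44876, Gm20489, Gm21970 and Gm42809) together held 1 count in the table, so few of the counts were assigned to them. How reads on shared bases were counted was not given in the sources used here, so a loss of such reads could not be judged.

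Promoter windows from 250 bases before to 50 after the RefSeq start (GRCm38.p6) were matched by symbol for 8 of the 10 chains, all but Il10ra and Il10rb. Their median GC content was 64.0%, from 50.3% to 74.3%, against a median of 52.7% over 32851 such windows. The letters CCGCCC on either strand, the core of a GC box, occurred in 6 of the 8 windows (Il4ra, Ifngr1, Ifnar2, Ifnar1, Ifngr2 and Il13ra1) and in 35.7% of all windows. The STAT-type motif TTCNNNGAA, which reads the same on both strands, was in 2 of the 8 (Ifnar2 and Ifnar1) and in 8.30% of all windows. The form with TTC and GAA 4 bases apart, which also reads the same on both strands and is known for STAT6, was in 1 of the 8 (Ifngr2) and in 6.95% of all. The interferon-response type of motif, GAAA repeated after 2 bases on either strand, was in 0 of the 8 and in 3.44% of all.

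Shown first are the stretches before the start of Ifngr1, whose values did not overlap between the genotypes, and of Il4ra, the chain through which IL-4 acts. Then come the stretches around the STAT-type letters of the interferon receptor chains. Each is on the plus strand and written 5′ to 3′, with CCGCCC (Ifngr1) or the STAT-type motif (Ifnar2, Ifnar1, Ifngr2) in capitals. The Il4ra stretch ends just before the start of the gene in GENCODE and holds neither kind of letters, while the CCGCCC of the Il4ra window lies on the minus strand downstream of it.
Ifngr1, chr10:19591699-19591948: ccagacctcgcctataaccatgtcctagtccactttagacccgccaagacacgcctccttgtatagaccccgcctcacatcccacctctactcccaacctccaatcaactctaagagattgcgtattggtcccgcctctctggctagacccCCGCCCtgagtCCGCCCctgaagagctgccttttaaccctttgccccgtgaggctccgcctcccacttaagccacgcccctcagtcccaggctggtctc
Il4ra, chr7:125552021-125552119: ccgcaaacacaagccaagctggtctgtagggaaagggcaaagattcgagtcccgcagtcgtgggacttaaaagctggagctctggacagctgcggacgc
Ifnar2, chr16:91372548-91372597: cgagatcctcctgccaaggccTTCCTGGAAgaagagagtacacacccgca
Ifnar1, chr16:91485169-91485218: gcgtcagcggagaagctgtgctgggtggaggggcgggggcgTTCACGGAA
Ifngr2, chr16:91546948-91546997: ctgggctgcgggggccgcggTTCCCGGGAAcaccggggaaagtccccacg
A letter match describes the sequence and was not tested for binding.

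Ptk2b, the deleted gene, was at 195 ± 5.63 CPM in WT against 21.8 ± 1.14 CPM in PYK2 KO libraries (mean ± SD of 3 mice per genotype). CPM is the count of a gene normalised to the size of its library with TMM factors. The labels and the counts of the deleted gene thus matched in the 6 libraries. Macrophage markers were abundant, and the 10 of them summed to 29422 to 30127 CPM in WT and to 30587 to 31562 CPM in PYK2 KO libraries, so the sums did not overlap. Lyz2, which made up most of the sum, was at 23536 to 24430.5 CPM in WT and at 24815 to 25925 CPM in PYK2 KO libraries (log2 fold change 0.08, adjusted p = 0.912, edgeR's quasi-likelihood test). The genotypes did not overlap for 2 of the 10 markers (Lyz2 and Itgam, both higher in PYK2 KO libraries), against 10.2% of all tested genes. Of the 10 markers 0 passed, against 0.255% of all tested genes, which is near the background for so few genes. The part of these markers in the levels of the receptor chains was not tested.

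None of the receptor chains passed the test between genotypes. By the quasi-likelihood test of edgeR, with Benjamini-Hochberg adjustment over 9815 genes, 0 of the 9 tested chains had an adjusted p-value under 0.05, against 25 genes or 0.255% of all tested, and 0 had an unadjusted p-value under 0.05, against 6.03% of all tested. DESeq2 and limma voom likewise gave 0 chains by either threshold. The chains had a median log2 fold change (PYK2 KO minus WT) of -0.06, against 0.0019 over all tested genes, and 8 of the 9 were below 0, as were 49.5% of all tested genes. A p-value that misses the threshold does not show that the genotypes are alike, so the 95% interval of each difference is given. In bulk RNA, fewer cells of a type and less RNA per cell cannot be told apart.

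**Figure D1:**
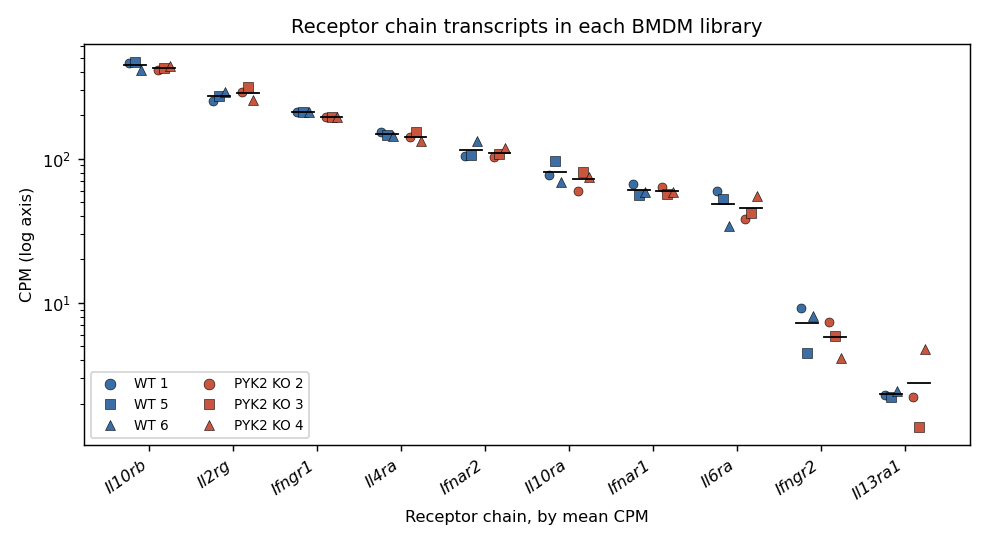
Level of each of the 10 receptor chains in each library, in CPM on a log axis, with chains ordered by their mean. Points are libraries (one mouse each), blue for WT and red for PYK2 KO, and short lines are the mean of 3. The genotypes overlap for 9 chains, and those of Ifngr1 do not overlap, with a PYK2 KO mean of 92.6% of the WT mean.

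Il4ra encodes IL-4Rα, which binds IL-4 and carries the docking sites for STAT6. It was at 153, 146 and 143 CPM in WT libraries 1, 5 and 6 and at 140.2, 152 and 133 CPM in PYK2 KO libraries 2, 3 and 4. The PYK2 KO library 3 lay among the WT values, so the groups overlapped. The log2 fold change was -0.06 with a 95% interval from -0.23 to 0.12 (adjusted p = 0.971, edgeR's quasi-likelihood test), which in linear terms is 0.962-fold, from 0.851-fold to 1.09-fold. The log2 fold change was -0.01 when PYK2 KO library 4 was omitted, -0.11 when library 3 was omitted and -0.03 when WT library 1 was omitted. Between mice of a genotype the level varied by 5.37%, close to the 4.59% expected from counting alone. Transcript levels say nothing of the amount of receptor protein.

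Il2rg encodes the common gamma chain, which pairs with IL-4Rα in the type I IL-4 receptor and also serves IL-2, IL-7, IL-9, IL-15 and IL-21. It was at 252, 269 and 291 CPM in WT and at 288, 313 and 253 CPM in PYK2 KO libraries. The ranges of the genotypes overlapped. Its log2 fold change of 0.07 (95% interval from -0.13 to 0.27, adjusted p = 0.964, same edgeR test) was the one value above 0 among the 9 chains in the fit of all 6 libraries. It was 0.02 when WT library 1 was omitted, -0.00071 when PYK2 KO library 3 was omitted and 0.15 when PYK2 KO library 4 was omitted.

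Il13ra1 encodes the chain that pairs with IL-4Rα in the type II receptor, through which both IL-4 and IL-13 signal. It had 9, 8 and 7 counts in WT and 7, 4 and 16 counts in PYK2 KO libraries, or 2.57 CPM on average. At this depth 1 count is worth from 0.255 to 0.351 CPM, and the chain was too low to be tested. The highest and the lowest count both came from PYK2 KO libraries, and a difference was not detectable at this depth.

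The IL-10 receptor joins IL-10Rα, which binds the ligand, to IL-10Rβ, a chain shared with the receptors for IL-22 and the lambda interferons. Il10ra was at 77.1, 95.5 and 68.7 CPM in WT and at 60.0, 81.1 and 74.8 CPM in PYK2 KO libraries. WT library 5 was highest and PYK2 KO library 2 lowest, with the other 4 interleaved. Its log2 fold change was -0.17 (95% interval from -0.44 to 0.11, adjusted p = 0.935, same edgeR test). It was -0.05 when PYK2 KO library 2 was omitted, -0.03 when WT library 5 was omitted, and -0.26 on omission of WT library 6 or of PYK2 KO library 3.

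Il10rb was the most abundant of the 10 chains. It was at 457, 465 and 411 CPM in WT and at 412, 427 and 437 CPM in PYK2 KO libraries. WT held both the highest values and the lowest. The log2 fold change was -0.06 (95% interval from -0.24 to 0.11, adjusted p = 0.964, same edgeR test). It was -0.03 when WT library 5 was omitted and -0.12 when WT library 6 was omitted. Omission of WT library 1 or of PYK2 KO library 2 gave -0.04.

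Ifngr1 encodes the ligand-binding chain of the interferon gamma receptor. It was at 209.9, 212 and 209.6 CPM in WT and at 194, 194 and 196 CPM in PYK2 KO libraries. Here each PYK2 KO value was lower than each WT value, as in 5.07% of all tested genes, and it was the one chain of the 9 whose genotypes did not overlap (10.2% of all tested genes did not overlap in either direction). The log2 fold change was -0.11 (standard error 0.08, 95% interval from -0.27 to 0.05, adjusted p = 0.926, same edgeR test), which does not pass.

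The spread of Ifngr1 within a genotype was 0.436% of the mean, whereas counting alone would give 3.87%. Per degree of freedom its chi-square against counting error was 0.0131, the lowest of 6140 tested genes with at least 20 CPM on average, over which the median was 1.84. Because edgeR's test draws the spread of a gene toward that of genes of like abundance, the gap between the genotypes was measured against a wider spread than these 6 values show. Whichever library was omitted, the log2 fold change was -0.11.

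Ifngr2 encodes the chain of the interferon gamma receptor that brings in JAK2. It was at 9.19, 4.48 and 8.06 CPM in WT and at 7.38, 5.89 and 4.17 CPM in PYK2 KO libraries, from 14 to 36 counts. The groups overlapped. Its log2 fold change was -0.32 with the widest interval of the 9 chains (95% interval from -0.99 to 0.34, adjusted p = 0.946, same edgeR test), so neither a fall to 0.503-fold nor a rise to 1.27-fold lies outside its interval. Omitting WT library 1 gave -0.08 and omitting PYK2 KO library 4 gave -0.12. Omitting WT library 5 gave -0.58 and omitting PYK2 KO library 2 gave -0.54.

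Type I interferons bind a receptor of IFNAR1 and IFNAR2, to which TYK2 and JAK1 are attached. Ifnar1 was at 66.7, 56.3 and 58.5 CPM in WT and at 63.5, 57.2 and 59.0 CPM in PYK2 KO libraries. These values were interleaved and their spread within a genotype, 7.47%, was about that of counting (7.10%). The log2 fold change was -0.02 (95% interval from -0.24 to 0.21, adjusted p = 0.994, same edgeR test). Ifnar2 was at 105, 107 and 132 CPM in WT and at 102, 107 and 118 CPM in PYK2 KO libraries. WT library 6 stood above the other 5, and the log2 fold change was -0.06 (95% interval from -0.28 to 0.16, adjusted p = 0.977, same edgeR test).

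Il6ra encodes the IL-6 binding chain, which signals only with gp130, the shared chain encoded by Il6st. It was at 59.2, 52.1 and 34.3 CPM in WT and at 38.2, 42.3 and 54.8 CPM in PYK2 KO libraries. The WT values enclosed the PYK2 KO values. Of the 8 chains with at least 20 CPM it varied most between mice of a genotype, by 23.1% against 7.99% from counting. Il6st, in contrast, ranged from 44.9 to 54.7 CPM over the 6 libraries. The log2 fold changes were -0.12 for Il6ra (95% interval from -0.49 to 0.25, adjusted p = 0.969) and -0.05 for Il6st (95% interval from -0.29 to 0.19, adjusted p = 0.991, same edgeR test).

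**Figure D2:**
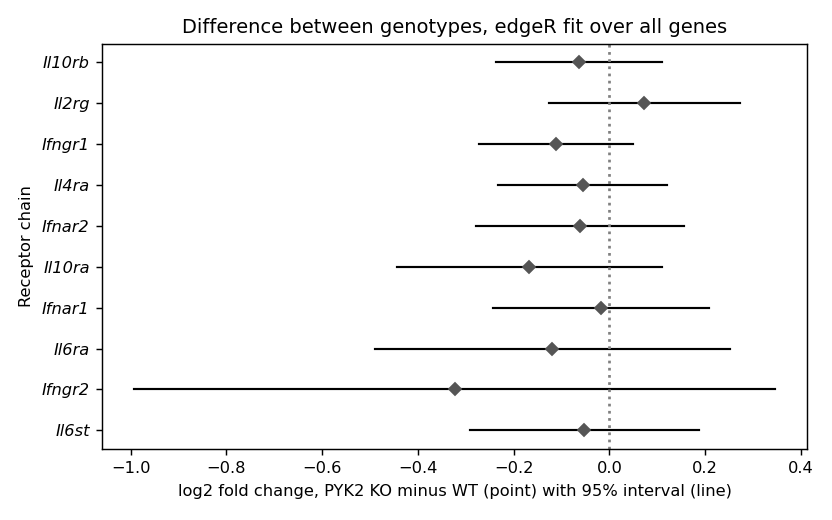
Difference between genotypes for the 9 tested receptor chains and for Il6st, as log2 fold change of PYK2 KO minus WT (diamond) with its 95% interval (line) from the edgeR fit. Every interval crosses 0, and that of Ifngr2, the least abundant tested chain, is the widest.

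B2m, which encodes the light chain of MHC class I, differed between libraries across the genotypes. It was at 971, 263 and 213 CPM in WT and at 523, 1046 and 1521 CPM in PYK2 KO libraries, and the same 3 libraries (WT 1 and PYK2 KO 3 and 4) were highest in S100a9, a transcript of neutrophils and their precursors, at 70.7, 30.0 and 34.0 CPM in WT and 50.7, 93.2 and 103 CPM in PYK2 KO libraries. B2m did not pass the test of genotype (log2 fold change 1.09, unadjusted p = 0.0216, adjusted p = 0.702, edgeR's quasi-likelihood test), and neither did S100a9 (log2 fold change 0.85, unadjusted p = 0.00596, adjusted p = 0.537). The B2m difference was 2.11 when WT library 1 was omitted (adjusted p = 0.00308) and 0.69 when PYK2 KO library 4 was omitted (adjusted p = 1.00), and without a filter on low counts it passed at 1.09 (adjusted p = 4.19e-33). The mean of B2m was higher in PYK2 KO libraries (1030.0 against 482 CPM), so this covariate was not balanced between the genotypes. With the log2 level of B2m as a covariate 0 chains passed, and the log2 fold change of Il6ra was -0.45 in place of -0.12 (unadjusted p = 0.0158, adjusted p = 0.535, edgeR's quasi-likelihood test). The value was 0.18 in place of 0.07 for Il2rg, -0.12 in place of -0.06 for Il10rb, -0.08 in place of -0.02 for Ifnar1 and -0.01 in place of -0.06 for Ifnar2. For Il4ra, Il10ra, Ifngr1 and Ifngr2 it was -0.08, -0.23, -0.11 and -0.40, each within 1.5 times of the value without the covariate. The part of this difference between libraries in the level of Il6ra was not tested further.

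Because the libraries hold 3′ ends of transcripts, CPM was compared between chains without division by length. The capture and amplification of 3′ ends can differ from gene to gene, and whether reads of one molecule were collapsed was not given, so the order describes counts rather than numbers of transcripts. Over the 6 libraries the mean level from highest to lowest was that of Il10rb (435 CPM), Il2rg (278), Ifngr1 (203), Il4ra (145), Ifnar2 (112), Il10ra (76.2), Ifnar1 (60.2), Il6ra (46.8), Ifngr2 (6.53) and Il13ra1 (2.57). The ranges of neighbours overlapped between Il10ra and Ifnar1, between Ifnar1 and Il6ra, and between Ifngr2 and Il13ra1, while the ranges of the other neighbours did not. The 10 chains together made up from 1359 to 1409 CPM in WT and from 1309 to 1381 CPM in PYK2 KO libraries. Il10rb and Il2rg, both shared chains, accounted for 31.9% and 20.4% of the mean of that sum.

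The balance between the chains of a receptor was then taken within each library, where the scaling of libraries drops out. Il4ra had 0.545 counts for each count of Il2rg in WT and 0.500 in PYK2 KO BMDMs (geometric means, n = 3 mice each). On the log2 scale these ratios were -0.72, -0.88 and -1.02 in WT libraries 1, 5 and 6 and -1.04, -1.04 and -0.92 in PYK2 KO libraries 2, 3 and 4. PYK2 KO libraries 2 and 3 lay just below the lowest WT value and library 4 lay among the WT values, a difference of -0.12 (two-sided exact permutation test, p = 0.2, adjusted p = 1 over 6 ratios). The smallest p-value that 3 against 3 mice allow is 0.1.

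Il4ra exceeded Il13ra1 by 63.2 to 1 in WT and 57.7 to 1 in PYK2 KO BMDMs, a log2 difference of -0.13 (exact permutation p = 0.8). The 2 chains of the interferon gamma receptor were also far apart, with Ifngr1 at 30.4 counts for each of Ifngr2 in WT and 34.4 in PYK2 KO BMDMs, a log2 difference of 0.18 (exact permutation p = 0.6). Il10ra was at 0.180 and 0.168 of Il10rb (exact permutation p = 0.6), Ifnar1 at 0.530 and 0.549 of Ifnar2 (exact permutation p = 0.9), and Il6ra at 0.918 and 0.899 of Il6st (exact permutation p = 1). In all 6 ratios the genotypes overlapped and the adjusted p-value of the exact test was 1.

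**Figure D3:**
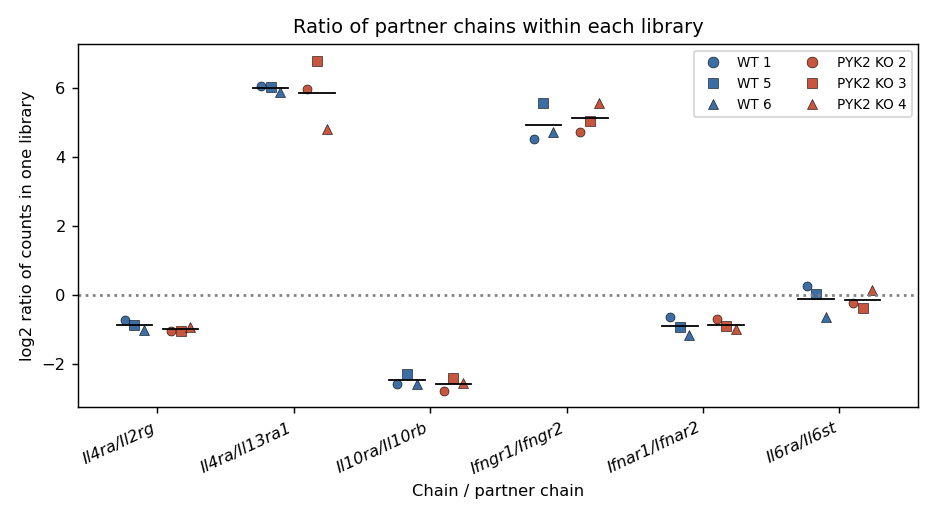
Log2 ratio of the counts of 2 partner chains within each library, with points for libraries (blue WT, red PYK2 KO) and short lines for the mean of 3. Il4ra over Il13ra1 and Ifngr1 over Ifngr2 lie near 6 and 5 on the log2 scale, and the genotypes overlap in all 6 ratios.

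Of the cytokines that bind these receptors, few were transcribed in the culture. Of 17 ligand genes listed, 16 were found by symbol, and 10 of these had no count in any library, among them Il13, Ifng, Ifnb1 and Il6. A count of 0 allows up to 3 counts, or from 0.766 to 1.05 CPM per library. Il10 had at most 3 counts and Il4 at most 1 count in a library. Il15, which uses the common gamma chain, was the one ligand tested, at 19.9 ± 3.78 CPM in WT against 24.2 ± 1.26 CPM in PYK2 KO libraries (log2 fold change 0.30, adjusted p = 0.892, edgeR's quasi-likelihood test).

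Of 33 other chains of the class I and class II families 13 were tested, and 1 passed in the downward direction, against 0.143% of all tested genes. This was Csf2rb2, a beta chain of the mouse IL-3 receptor, at 154 ± 24.8 CPM in WT against 105 ± 6.81 CPM in PYK2 KO libraries. It fell by 0.55 on the log2 scale (SE 0.11, adjusted p = 0.0451, edgeR's quasi-likelihood test), lower in 3 of 3 PYK2 KO libraries. It no longer passed in 8 of 15 other settings, among them limma voom (adjusted p = 0.0701) and 5 of the 6 fits without one library (adjusted p up to 0.211). Csf2rb2 is close in sequence to its neighbour Csf2rb, the beta chain shared by the receptors for GM-CSF, IL-3 and IL-5, so reads could be divided between them and both are uncertain. Csf2rb was at 184 ± 19.8 and 157 ± 12.5 CPM (log2 fold change -0.23, unadjusted p = 0.025, adjusted p = 0.718, same edgeR test), with -0.39 under the B2m covariate and -0.14 without WT library 1. Il21r, which pairs with the common gamma chain, was at 70.0 ± 2.24 and 60.5 ± 2.35 CPM (log2 fold change -0.21, unadjusted p = 0.0445, adjusted p = 0.814, same edgeR test). The median over the 13 chains was -0.12, with 11 below 0, against 49.5% of all tested genes. Of the 13 chains 3 had an unadjusted p-value under 0.05 by that test, all lower in PYK2 KO libraries, against 6.03% of all tested genes. The genotypes did not overlap for 2 of the 13 (Csf2rb2 and Il21r), against 10.2% of all tested genes.

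All 12 genes of the JAK and STAT list, which also holds Irf9, were tested and 0 passed, against 0.255% of all tested genes. Stat6, which docks on IL-4Rα, and Stat2, which acts below the type I interferon receptor, had an unadjusted p-value under 0.05, as did 6.03% of all tested genes. Stat6 was at 178 ± 11.8 CPM in WT against 151 ± 3.45 CPM in PYK2 KO libraries, a log2 fold change of -0.24 (95% interval from -0.41 to -0.07, adjusted p = 0.583). Stat2 was at 59.5 ± 5.72 and 69.6 ± 5.42 CPM, a log2 fold change of 0.23 (adjusted p = 0.827, same edgeR test). For Stat2 it was 0.15 without WT library 1 and 0.37 with B2m as a covariate. The genotypes did not overlap for 5 of the 12 genes, against 10.2% of all tested genes, with Stat6 and Stat3 lower and Stat2, Jak2 and Stat5a higher in PYK2 KO libraries. Of these, Stat3, Jak2 and Stat5a had unadjusted p-values of 0.357, 0.168 and 0.101. The list had a median of 0.08.

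Negative regulators of these receptors and genes of their turnover were examined next. Against a share of 0.255% over all tested genes, 0 calls are near the background for lists of this size. Of 16 tested SOCS, phosphatase, PIAS and USP18 genes 0 passed (median -0.06), and Ptpn6, which encodes the phosphatase SHP-1, was the most abundant, at 481 ± 6.45 and 462 ± 37.2 CPM (log2 fold change -0.06, and -0.0030 with B2m as a covariate). Of 12 genes for ubiquitin ligases, sheddases and sorting proteins 0 passed (median -0.03), with values from -0.08 to 0.09, and Rnf128 was the most abundant at 227 ± 28.5 and 223 ± 15.9 CPM. Its log2 fold change was -0.03, and -0.20 with B2m as a covariate (unadjusted p = 0.0477, adjusted p = 0.664, edgeR's quasi-likelihood test). In both lists 0 genes had an unadjusted p-value under 0.05 without the covariate, against 6.03% of all tested genes, which is also near the background for so few genes.

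Of the genes known to respond through the receptors 0 passed in each of 4 lists, which at 0.255% of all tested genes is likewise near the background. Of 11 tested IL-4 responsive genes 0 passed (median -0.0082). Cd36, a scavenger receptor, was at 17.7 ± 8.51 and 30.3 ± 11.5 CPM (log2 fold change 0.74, adjusted p = 0.697) and was highest in the same 3 libraries as B2m. Its log2 fold change was 0.04 with B2m as a covariate, 1.21 on omission of WT library 1 and 0.45 on omission of PYK2 KO library 4. Without a filter on low counts Cd36 passed at 0.74 (adjusted p = 0.00226, edgeR's quasi-likelihood test). Myc was at 36.0 ± 6.43 and 27.4 ± 5.49 CPM (log2 fold change -0.39, adjusted p = 0.783, same edgeR test), with -0.18 under the B2m covariate and -0.25 on omission of WT library 6 or of PYK2 KO library 4. Retnla and Ccl17, classical IL-4 targets, had no count in any library.

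Of 16 tested genes that respond to IL-10 or IL-6 through STAT3 0 passed (median -0.09). Fos was at 103 CPM in WT library 6 and at 13.5 to 32.9 CPM in the other 5 libraries. Its log2 fold change of -1.29 (adjusted p = 0.661) was -0.28 without that library and -0.34 with B2m as a covariate. Without a filter on low counts Fos passed at -1.29 (adjusted p = 1.81e-14, edgeR's quasi-likelihood test). Fcgr2b, which encodes the inhibitory Fc gamma receptor, was at 129 ± 17.6 and 156 ± 17.5 CPM (log2 fold change 0.28, adjusted p = 0.697, same edgeR test), with 0.16 under the B2m covariate and 0.18 without WT library 6.

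Of 13 tested interferon gamma responsive genes 0 passed (median 0.07, with 10 above 0 and 3 below). Of 23 tested type I interferon responsive genes 0 passed (median 0.12, with 15 above 0 and 8 below). Over all tested genes 49.5% were below 0. Gbp2, a guanylate-binding protein gene, was at 4.72 ± 0.768 and 8.60 ± 1.25 CPM (log2 fold change 0.85, unadjusted p = 0.00528, adjusted p = 0.509), higher in 3 of 3 PYK2 KO libraries. Cd274, which encodes PD-L1, was at 28.0 ± 5.53 and 21.9 ± 2.59 CPM (log2 fold change -0.36, adjusted p = 0.823), with -0.60 under the B2m covariate and -0.19 without WT library 1. Bst2, the most abundant of the type I list, was at 581 ± 22.7 and 565 ± 73.4 CPM (log2 fold change -0.04, adjusted p = 0.993, same edgeR test).

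**Figure D4:**
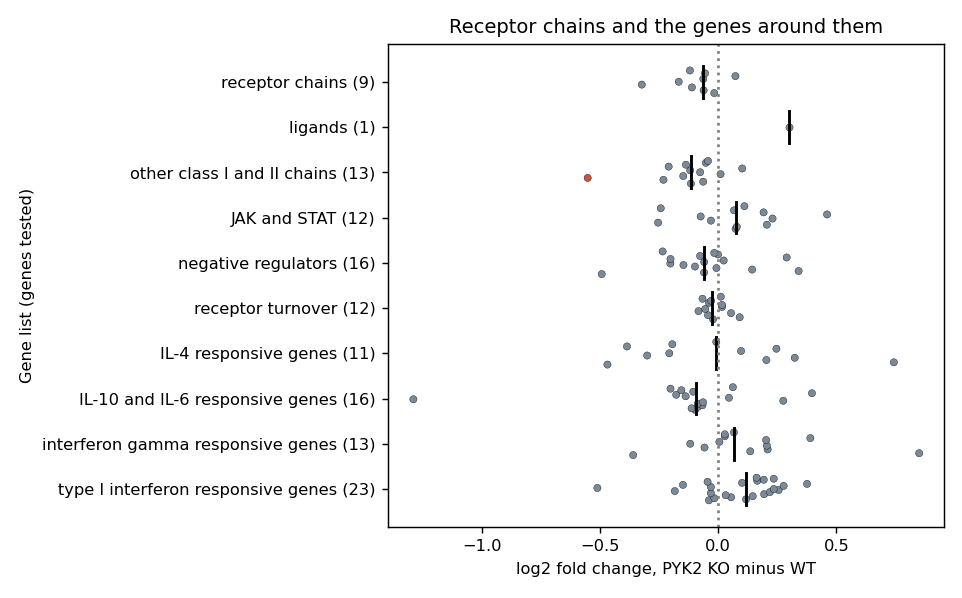
Log2 fold change (PYK2 KO minus WT) of each tested gene by list, with the number tested in brackets and the median as a black line. One gene is red for an adjusted p-value under 0.05 (Csf2rb2), and the medians lie between -0.12 and 0.12 apart from the list of ligands, which has 1 gene.

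Several of the chains are also expressed by other marrow cells, whose markers were therefore counted. Of the B cell markers Cd79a, Ms4a1 and Pax5 had no count. Ighm was the most abundant, at 362 ± 17.5 CPM in WT against 336 ± 27.0 CPM in PYK2 KO libraries. Ighm was 1 of 3 B cell markers with enough counts to be tested, whose log2 fold changes ran from -0.24 to -0.11. The list summed to 379 to 410.1 CPM in WT and 346 to 389 CPM in PYK2 KO libraries. Of 8 T and NK cell markers 5 had no count (Cd3e, Cd3d, Cd8a, Ncr1 and Klrb1c) and the sum stayed from 5.07 to 8.96 CPM over the 6 libraries, led by Cd4. Dendritic cell markers (Flt3, Zbtb46, Xcr1, Siglech and Clec9a at 0, Ccr7 highest), stromal markers (Col3a1 at 0, Col1a2 highest), mast cell and basophil markers (Cpa3, Fcer1a and Ms4a2 at 0, Kit highest) and erythroid markers (Klf1 alone with counts) each summed to at most 1.75 CPM in a library. Neutrophil and precursor markers summed from 129 to 181 CPM in WT and from 133 to 232 CPM in PYK2 KO libraries, with S100a9 highest. Of the 6 tested markers of that list 4 were above 0 and 2 below on the log2 fold change scale, from -0.26 to 1.19 with a median of 0.14, and 2 of the 6 (S100a9 and Mpo, both higher in PYK2 KO libraries) had an unadjusted p-value under 0.05, against 6.03% of all tested genes. None of these markers passed, against 0.255% of all tested genes, and their part in the levels of the receptor chains was not tested.

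As a description, the genes whose levels followed Il4ra most closely over the 6 libraries were Tmed2, Crnkl1 and Arnt, with a Pearson correlation of log2 CPM of 0.996, 0.983 and 0.981. All were from the same 6 libraries, and 65 of 6139 genes with at least 20 CPM exceeded 0.9.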

How the data were processed

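Bulk MARS-seq was run on BMDMs from 3 mice per genotype. The authors used the UTAP pipeline to map reads and count them by gene, and the deposited values are raw counts, in whole numbers. The submitters' processing notes name cutadapt, STAR and mm10. The annotation, strand setting and handling of molecular identifiers were not given in the sources used here, so limits cover counting error only. The 6 columns were assigned to samples by their names, and columns of other samples numbered 0. No pair of libraries was a duplicate (chi-square per degree of freedom at least 2.15).

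The test of the counts used edgeR 4.0.16 under R 4.3.3 (filterByExpr with a minimum count of 10, TMM, quasi-likelihood F test on genotype, Benjamini-Hochberg adjusted p-value under 0.05 over all tested genes). Standard errors and 95% intervals were computed from the fold change and F statistic. CPM used the effective library sizes of that fit. Partner ratios were compared by a two-sided exact permutation test. The steps were checked on simulated counts. Alternatives were DESeq2 1.42.0, limma 3.58.1, other normalizations, filters and tests, B2m as a covariate, and leaving out each library.

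The receptor chains, the lists of genes, the alternatives and the rule by which genes are named were chosen with earlier results of these data known. That rule took all chains, Ptk2b, Il6st, B2m, genes of each pathway list with an adjusted p-value under 0.05 or up to 5 with an unadjusted p-value under 0.05 (otherwise its most abundant tested gene), the most abundant gene and the genes at 0 of each list of other cell types, and the 3 genes most like Il4ra. Outside this rule, Lyz2, Itgam, Mpo, Stat3, Jak2, Stat5a, Retnla, Ccl17 and the ligands other than Il15 were added after their values were seen. One marker that the rule would name is not reported here. Coordinates are from GENCODE M21 (GRCm38, the same assembly as mm10), and promoter sequences from RefSeq (GRCm38.p6).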

Additional observations from a re-analysis of the deposited data

How the results depend on the processing

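No paired analysis was possible because WT mice carry the numbers 1, 5 and 6 while PYK2 KO mice carry 2, 3 and 4. The Ptk2b difference and the count of 0 receptor chains past the threshold held in each of 15 other settings. The number of genes called was 159 without a filter and 45 with the likelihood ratio test, against 25, and lay between 14 and 34 on omission of single libraries (14 without PYK2 KO library 4, 15 without WT library 5 or PYK2 KO library 2). Over the pathway lists 1 gene was called. The count was 0 with upper quartile factors, without scaling factors and with limma voom, 3 without a filter, and 0 to 1 on omission of single libraries. The gene lost was Csf2rb2, and those added without a filter were Cd36 and Fos. The cause of each change was not tested.

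Between 6 and 8 tested chains were below 0 in each setting. On omission of single libraries the log2 fold change crossed 0 for Ifnar1 (from -0.069 to 0.063), Ifnar2 (from -0.13 to 0.048), Il2rg (from -0.00071 to 0.15), Il6ra (from -0.30 to 0.050), Il6st (from -0.12 to 0.014), Ptpn6 (from -0.11 to 0.0047), Rnf128 (from -0.10 to 0.077) and Bst2 (from -0.11 to 0.064, and 0.056 with B2m as a covariate). The differences of the log2 ratios ran from -0.077 to 0.18 for Ifnar1 to Ifnar2, from -0.043 to 0.50 for Ifngr1 to Ifngr2, from -0.19 to 0.0048 for Il10ra to Il10rb, from -0.60 to 0.39 for Il4ra to Il13ra1 and from -0.29 to 0.17 for Il6ra to Il6st. That of Il4ra to Il2rg stayed below 0, from -0.20 to -0.05. For Il13ra1, the fit without a filter gave 0.29 (adjusted p = 0.92, edgeR's quasi-likelihood test), and from 4 to 16 counts per library limit what can be said of it.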
